A study of Homo sapiens with 4 samples.

Results

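The genes of 8 polyadenylated variant histones, H3-3A, H3-3B, H2AZ1, H2AZ2, H2AX, H2AJ, H1-10 and MACROH2A1, were taken by symbol from the peak list of a PRMT5 RNA immunoprecipitation experiment. Of the 8 genes, 7 had at least 1 peak, with 14 peaks in all, in a list of 18993 peaks and 8478 genes. No measured value entered the rule that chose the 8 genes, but earlier results of these data were known at the time. H2AJ, on the plus strand at chr12:14774405-14778002 (GRCh38), had no peak in its span or within 2000 nt on either strand, and is not described further.

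The list came from Jurkat, a leukemia-derived T cell line of long standing, in which all cells were stimulated with the lectin PHA for 48 hours and crosslinked with UV light, given in the labels as 264 nm at 400 mJ. PRMT5 RIP (2 libraries, from a FLAG immunoprecipitation) was compared with input RNA of the same cells (2 libraries), and no library from a mock immunoprecipitation or from untreated cells was analysed here. Each peak has 1 pooled value per group in RPM, reads scaled to library size, so no value here has a replicate error, a test or an interval, and the depth per library is unknown. Of 13 T cell marker genes, 11 were touched by a peak on either strand, and 7 were found under their own symbol. Summed input of those 7 ran from 3.46 RPM in CD2 to 417.11 RPM in CD3D. CD4 and TRAT1 were not touched. The B cell gene CD79A and the myeloid gene CSF1R had 37.28 and 29.51 RPM in input, more than some of the T cell genes. The erythroid gene HBA1 was touched by 2 peaks.

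PRMT5 is an arginine methyltransferase that acts in complex with WDR77, and histone tails are among its known substrates. Most histones are made in S phase from intronless genes whose mRNAs end in a stem-loop instead of a poly(A) tail. Variant histones are made throughout the cell cycle, mostly from spliced and polyadenylated mRNAs, and replace or join the canonical histones at particular places in chromatin. H2AX mRNA is known in both forms, and the genes of H2AX and H1-10 have no intron.

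The first transcribed bases are shown because the 5′-most or only peak began there in most of the genes. Each line below runs 5′ to 3′ over 30 bases before and 30 bases from the RefSeq start site (GRCh38.p14). Capitals mark the bases between the outer edges of the 5′-most or only peak of the gene.
H3-3A, chr1:226062686-226062745, plus strand: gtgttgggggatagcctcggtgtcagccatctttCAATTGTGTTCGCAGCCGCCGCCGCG
H3-3B, chr17:75779750-75779809, minus strand: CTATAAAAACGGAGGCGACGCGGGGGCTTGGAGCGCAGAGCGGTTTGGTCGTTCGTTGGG
H2AZ1, chr4:99950246-99950305, minus strand: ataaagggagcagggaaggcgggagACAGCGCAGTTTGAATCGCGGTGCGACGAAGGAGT
H2AZ2, chr7:44848058-44848117, minus strand: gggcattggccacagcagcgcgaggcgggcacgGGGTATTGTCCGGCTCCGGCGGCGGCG
H2AX, chr11:119095436-119095495, minus strand: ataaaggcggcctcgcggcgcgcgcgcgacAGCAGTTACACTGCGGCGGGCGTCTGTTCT
H1-10, chr3:129316257-129316316, minus strand: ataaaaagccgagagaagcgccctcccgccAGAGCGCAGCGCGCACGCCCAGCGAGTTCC
MACROH2A1, chr5:135399202-135399261, minus strand: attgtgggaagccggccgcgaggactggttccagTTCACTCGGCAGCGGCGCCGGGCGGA

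The capitals start at or within a few bases of the start site in every line except that of H3-3B, which is covered throughout. The 5′ edge of the 5′-most peak lay within 10 nt of a RefSeq start site in 6 of the 7 genes, whereas this held for 23.2% of the 5981 named genes of the list. Input was not matched in this comparison, and each of the 7 genes had more of it than at least 88.3% of all genes. Whether the peak edges were set by the annotation was not tested. Peaks of H2AX and H1-10 began exactly on it. H3-3A has 4 RefSeq start sites and MACROH2A1 has 2, and in each gene the peak began at 1 of them, at 226062716 and at 135399231. The letters TATAAA or their reverse complement TTTATA were searched from 50 to 16 bases before each start site of these genes, H2AJ included. They were present at H3-3B, H2AZ1, H2AX and H1-10 and at none of the other start sites. Of 35116 RefSeq promoters, not limited to genes of the list, 3.16% had them. The first T lay at position -29 in H3-3B and at position -31 in the other genes, so that some lines above open within these letters. The first 50 transcribed bases of the sites shown had a GC content between 58% in H2AZ1 and H2AX and 82% in MACROH2A1, beside a median of 66% (quartiles 60% and 74%) over 8565 start sites of named genes.

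Across the 14 peaks the log2 ratio of PRMT5 RIP RPM to input RPM (pseudocount 0.01) had a median of 0.99 and ranged from -0.13 to 2.31. Over all 18993 peaks the median was 1.10, and 6 of the 14 variant histone peaks lay above it. RIP reached at least 2 times input in 7 of the 14 peaks, against 56.6% of all peaks. Summed over the peaks of each gene, 5 of the 7 genes reached 2 times, against 62.7% of all genes, but only H2AX and H1-10, 2 of 7, did so when peaks wider than 5000 nt were left out (64.4% of all genes). The list holds only called peaks, so a RIP value above input is the common state in it.

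Input signal per peak was high for the variant histone genes, and the ratio was lower among peaks of high input in this list. Each of the 7 genes had more summed input RPM than at least 88.3% of the genes. The peaks were also wide from edge to edge, with a median genomic span of 1705 nt against 275 nt over the list. Any gaps inside a peak were not taken out. Per kilobase of peak, 10 of the 14 lay above the list median of 2.80 RPM in input, and the main MACROH2A1 peak, at 0.734 RPM per kb, did not. Among the 8854 peaks whose input was no lower than that of the lowest variant histone peak, 39.9% reached 2 times input and the median log2 ratio was 0.83. Among the 992 genes with as much summed input as MACROH2A1, the lowest of the 7, only 28.2% reached 2 times and the median was 0.67. All 7 variant histone genes lay above that median, while 2 of 7 lay above the median of 1.20 over all genes. Both limits on input were chosen after the values were seen.

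**Figure D1:**
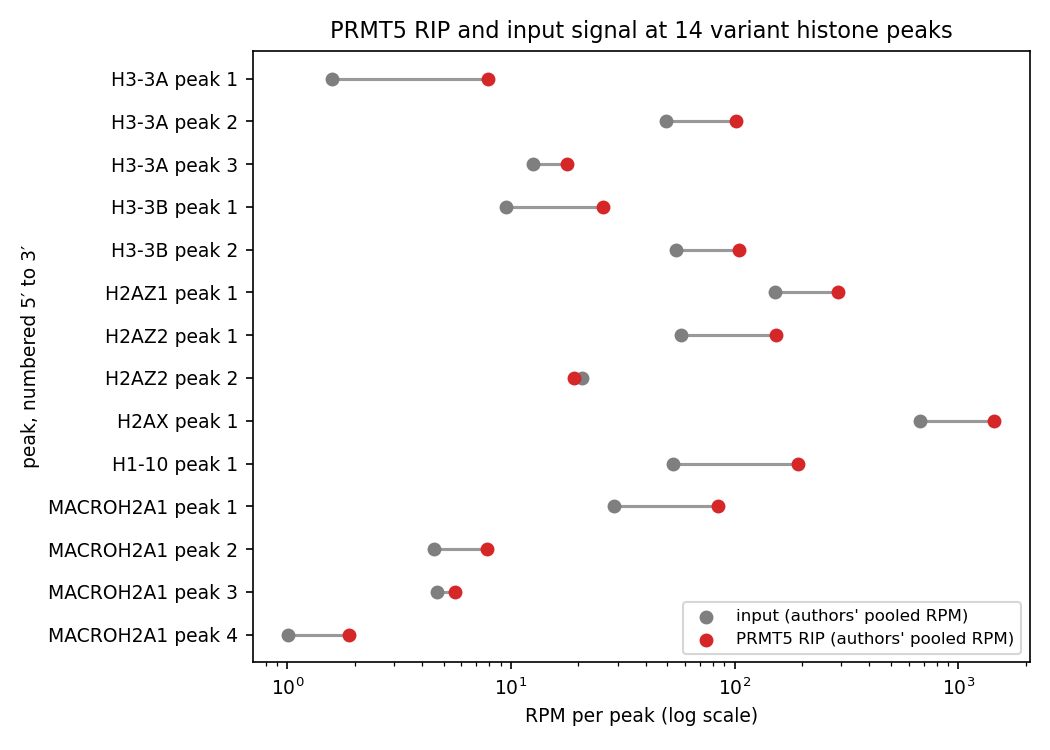
PRMT5 RIP (red) and input (gray) RPM of the 14 variant histone peaks, on a log axis, with 1 pooled value per group and peaks numbered 5′ to 3′ within each gene. RIP lies to the right of input everywhere except at peak 2 of H2AZ2, and H2AX is highest in both groups.

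H3-3A and H3-3B encode the same H3.3 protein, the replacement histone that HIRA and DAXX with ATRX place in chromatin. H3-3A (ENSG00000163041) had 3 peaks on the plus strand of chromosome 1, and the ratio was lower at each step toward the 3′ end. The first, chr1:226062720-226062819, was 100 nt wide and had 7.89 RPM in RIP and 1.58 RPM in input. RIP was thus 4.99 times input, and the log2 ratio of 2.31 was the highest of the 14 peaks. The second, chr1:226064307-226065832, had 101.27 RPM in RIP and 49.47 RPM in input, with a log2 ratio of 1.03. The last, chr1:226067258-226071488, had 17.81 and 12.58 RPM, with a log2 ratio of 0.50. Most of the H3-3A signal therefore came from the middle peak, and the gene as a whole had 126.97 RPM in RIP against 63.63 RPM in input, a log2 ratio of 1.00 that falls just under 2 times.

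H3-3B (ENSG00000132475), on the minus strand of chromosome 17, had a wide 5′ peak and a narrow peak inside the gene. The wide peak, chr17:75779278-75785382, spanned 6105 nt, of which 5603 nt lay upstream of the start site. The list assigned it to a second identifier as well, so that reads from H3-3B and from the upstream region cannot be told apart in it. It had 25.79 RPM in RIP and 9.54 RPM in input, a log2 ratio of 1.43. The narrow peak, chr17:75778584-75779202, had 104.83 and 54.80 RPM, a log2 ratio of 0.94, and lay wholly within the gene. The gene sums, 130.62 RPM in RIP and 64.34 RPM in input, were close to those of H3-3A, and the log2 ratios of the sums were 1.02 for H3-3B and 1.00 for H3-3A. Without the wide peak, H3-3B had the log2 ratio of its narrow peak.

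H2AZ1 and H2AZ2 encode the 2 forms of H2A.Z, which SRCAP and EP400 complexes deposit around active promoters. H2AZ1 (ENSG00000164032) had 1 peak, chr4:99948413-99950280, which spanned most of the gene on the minus strand. It had 288.58 RPM in RIP and 150.77 RPM in input, and its log2 ratio of 0.94 was the lowest of the 7 gene values. H2AZ2 (ENSG00000105968) had a peak of 12568 nt, chr7:44835517-44848084, with 152.46 RPM in RIP and 57.39 RPM in input and a log2 ratio of 1.41. Its second peak, chr7:44834455-44834941, had 19.06 RPM in RIP and 20.86 RPM in input. This was the only variant histone peak with less signal in RIP than in input (log2 ratio -0.13), and only 2.12% of all peaks had a lower ratio. The wide peak held 57.39 of the 78.25 RPM of H2AZ2 in input, and the gene had a log2 ratio of 1.13 with it and -0.13 without it.

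H2AX, the H2A variant phosphorylated around DNA breaks, carried most of the variant histone signal. Its only peak (ENSG00000188486), chr11:119093924-119095465, had 1449.43 RPM in RIP and 674.41 RPM in input, or 2.15 times input and a log2 ratio of 1.10. It ranked 88 by RIP and 111 by input among all peaks, and held 59.0% of the RIP signal of the 14 peaks. The ratio of the summed signal over all 14 peaks was 2.19 with H2AX and 2.25 without it.

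H1-10, a linker histone that binds between nucleosomes, had the highest gene value. Its only peak (ENSG00000184897), chr3:129314771-129316286, spanned exactly the RefSeq gene on the minus strand, with 191.79 RPM in RIP and 53.13 RPM in input. The ratio was 3.61 and the log2 ratio was 1.85, above 80.6% of all genes. A plus-strand peak touching the antisense gene H1-10-AS1, chr3:129315392-129317158, overlapped it by 895 nt and had 67.57 RPM in RIP and 11.84 RPM in input, a log2 ratio of 2.51. The kit marks strand, but the strand setting in counting is not given in the sources used here, so the share of antisense reads in the H1-10 value was not tested.

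MACROH2A1 encodes an H2A variant with a large globular macrodomain, found on repressed chromatin. Its 4 peaks (ENSG00000113648) lay on the minus strand of chromosome 5. The first, chr5:135359930-135399227, spanned 39298 nt and had 83.79 RPM in RIP and 28.84 RPM in input, a log2 ratio of 1.54. The next, chr5:135350897-135359729, had 7.82 and 4.52 RPM and a log2 ratio of 0.79. The ratio was lower again in peak 3, chr5:135343399-135350846, with 5.59 and 4.66 RPM and a log2 ratio of 0.26. The last, chr5:135334506-135334680, lay close to the 3′ end of the gene and had 1.89 and 1.01 RPM, the lowest values of the 14 peaks, with a log2 ratio of 0.90. Peaks 2 and 3 were overlapped by plus-strand peaks of another identifier, with log2 ratios of 0.38 and 0.05. Opposite-strand overlap thus touched 3 of the 14 variant histone peaks, in 2 genes, and 18.1% of all peaks.

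Per kilobase of peak, H2AX stood far above the other genes covered by 1 compact peak. It had 940 RPM per kb in RIP and 437 RPM per kb in input, H2AZ1 had 154 and 80.7, and H1-10 had 127 and 35.0. The narrow H3-3B peak had 169 RPM per kb in RIP and 88.5 RPM per kb in input. Among these peaks the order in input was therefore H2AX, H3-3B, H2AZ1 and H1-10. Of the peaks in other genes, the narrow H2AZ2 peak had 42.8 RPM per kb in input, above H1-10. The middle H3-3A peak had 32.4 RPM per kb, below it. No spread over libraries is at hand to say which neighbours differ, and the H2AZ1 peak spans introns, as the wide peaks of H2AZ2 and MACROH2A1 do, which lowers a level per kilobase.

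In all 4 genes with several peaks, the 5′-most peak had a higher ratio than the 3′-most peak, as did 69.5% of the 4657 such genes in the list. The difference in log2 ratio was 1.81 in H3-3A, 1.54 in H2AZ2, 0.64 in MACROH2A1 and 0.50 in H3-3B. The H3-3B value rests on the wide peak that lies mostly upstream of the start site, and the first peaks of H2AZ2 and MACROH2A1 are also wide. The median difference over the list was 0.41, with quartiles of -0.12 and 0.97, so that H3-3A and H2AZ2 lay above the upper quartile and the other 2 genes between the quartiles. Counting single peaks with the 5′-most ones, 6 of 7 reached 2 times input, with a median log2 ratio of 1.43, beside 70.2% and 1.38 over the list. Of the 7 further peaks 1 did, with a median of 0.79, beside 45.6% and 0.89 over the list. The exceptions were H2AZ1 in the first set and the middle H3-3A peak in the second. Peaks were not matched for width or level in this comparison, and their parts in it were not tested.

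**Figure D2:**
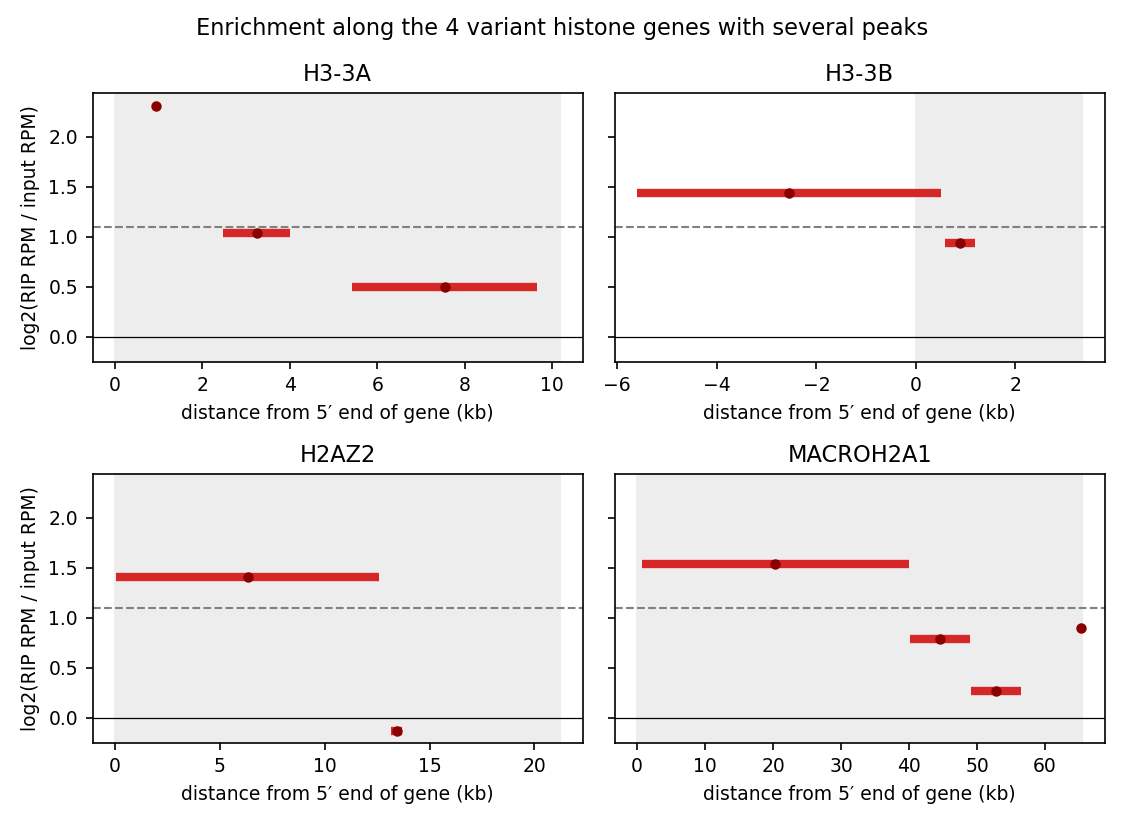
Log2 ratio of PRMT5 RIP to input RPM against distance in kb from the 5′ end of the RefSeq gene, for the 4 genes with several peaks. Red bars span each peak, dots mark peak centres (peaks of 175 nt or less show only the dot), gray shading is the gene and the dashed line is the median of all peaks, 1.10. The leftmost peak is above the rightmost in every panel.

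The peak caller's own log2 fold enrichment placed the peaks in another order. It had a median of 1.65 over the 13 variant histone peaks with a value and 1.95 over the list, and its FDR was at or below 0.01 in all 13, as in 99.0% of the peaks with an FDR. The remaining peak, the wide one of H3-3B, had neither. The caller's value exceeded the log2 RPM ratio by 0.79 in the median over the list and by 0.67 to 1.08 in 12 variant histone peaks. The wide H2AZ2 peak was the exception, at 3.26 against a log2 RPM ratio of 1.41, a gap of 1.85 that was larger than in 99.4% of peaks. By the caller it was the highest of the 13 peaks, ahead of the first H3-3A peak at 3.15 and of H1-10 and the first MACROH2A1 peak, both at 2.62. The scaling behind the caller's value is not given in the sources used here.

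**Figure D3:**
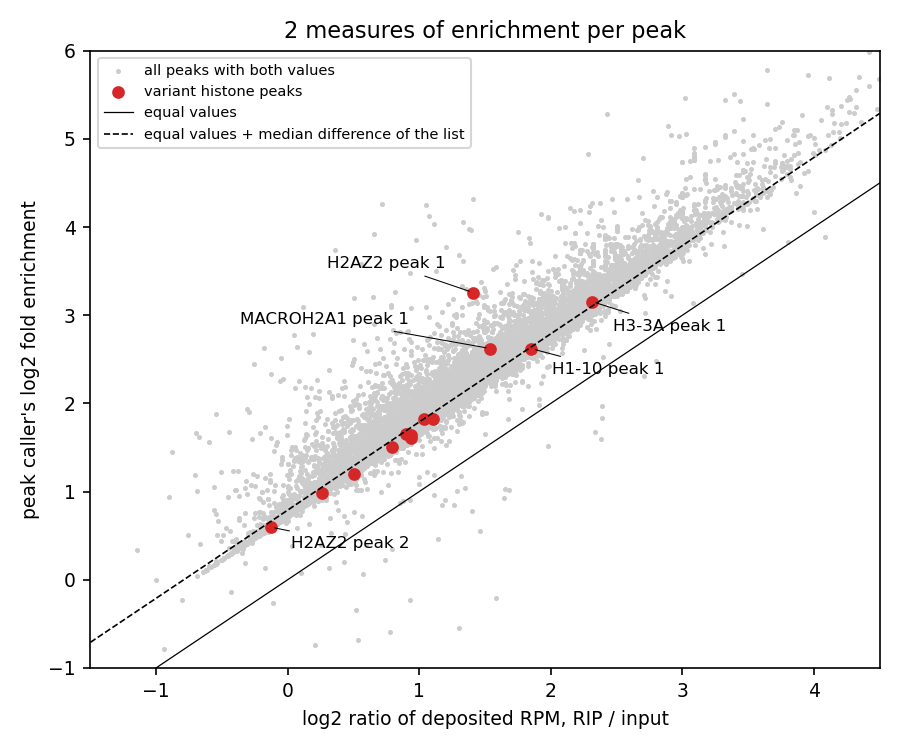
The peak caller's log2 fold enrichment against the log2 RPM ratio of RIP to input, for all peaks with both values (light gray; points beyond the axes are not drawn) and for 13 variant histone peaks (red). The dashed line lies above the line of equal values by the median difference of the list, 0.79, and peak 1 of H2AZ2 lies farthest above it among the red points.

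Near-identical copies can share reads with these genes, and of 55 annotated H3.3, H3 and H2A.Z pseudogenes 4 had a peak inside their span. At H3P6, an H3-3A pseudogene, a 25 nt peak had 9.23 RPM in RIP and 20.42 RPM in input, a log2 ratio of -1.14, the reverse of the H3-3A peaks. Its input exceeded that of the first and last H3-3A peaks. The span of H3P4, which has the older name HIST2H3DP1 and no H3.3 name, held 3 peaks. The wide one, listed under another identifier than the narrow ones, had 18.99 RPM in RIP and 20.37 RPM in input. The narrow ones had 4.57 and 0.66 RPM in RIP and 0.94 and 0.22 RPM in input. Peaks at H3P16 and H2AZ2P1 had 0.72 and 1.82 RPM in RIP and 0.26 and 0.61 RPM in input. The treatment of reads with several matches is not given in the sources used here.

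Of 24 other symbols searched as variant histones, CENPA, the H3 variant of centromeres, was the only one found under its own symbol. The 24 include pseudogenes, such as H2AZ2P1, and H4C7, which the naming rule of the replication-dependent genes also takes in. CENPA had 24.61 RPM in RIP and 10.09 RPM in input, a log2 ratio of 1.29. The log2 ratios of its 3 peaks were 0.00, 0.45 and 1.65. The stem-loop class was present in far greater amount. Of 69 replication-dependent histone genes, 57 had a peak, and their median summed input was 529 RPM per gene against 64.3 RPM for the 7 variant genes. Of the 57, 47 reached 2 times input, against 62.7% of all genes. Their median log2 ratio was 1.43 against 1.10 for the variant genes. Reads can be shared among these near-identical genes, so single values are uncertain. By the rule on named genes the extremes were H2BC6 (4.09), H1-4 (2.98) and H4C16 (2.89) at the top and H3C1 (-0.09), H3C3 (0.23) and H4C4 (0.48) at the bottom, all log2 ratios of summed RPM.

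Set beside its own class, each variant fell inside the range of the replication-dependent genes. The 10 H3 genes had log2 ratios from -0.09 to 1.84 with a median of 1.07, close to the 1.00 and 1.02 of H3-3A and H3-3B. The 14 H2A genes ran from 0.51 to 2.81 with a median of 1.63, and H2AZ1, H2AZ2 and H2AX each exceeded 1 of them and MACROH2A1 exceeded 3. The 5 H1 genes ran from 1.53 to 2.98 with a median of 1.85, the value of H1-10. The H2A-type variants were thus low within their class and the others near its middle, with no test possible of either.

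**Figure D4:**
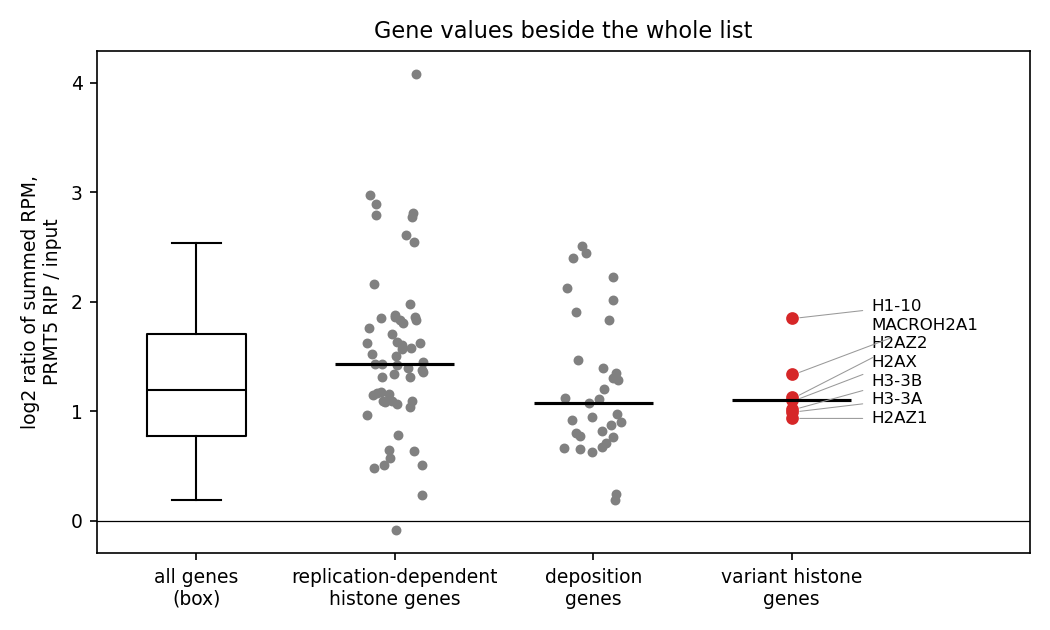
Log2 ratio of summed RIP RPM to summed input RPM per gene. The box gives the median, quartiles and 5th to 95th percentiles (whiskers) of all 8478 genes, points are the 57 replication-dependent histone genes, the 33 deposition genes and the 7 variant histone genes, and black bars are medians (1.43, 1.08 and 1.10). H1-10 is the highest of the variant genes.

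Of 47 genes that deposit or chaperone histones, 33 had a peak and 17 of them, 51.5%, reached 2 times input, against 62.7% of all genes. Their median log2 ratio of summed RPM was 1.08. The H3.3 group had 8 of its 9 genes on the list, 5 of them at 2 times or more, with a median of 1.51, and the H2A.Z group 11 of 20, with 7 and 1.13. The group for H2A.X, linker histones and general chaperones had 14 of 18, with 5 and 0.91. The highest values among genes with at least 0.5 RPM in input were those of UBN1, a HIRA partner (2.40), BAZ1B, a kinase of H2A.X (2.23), and EP400 (1.83). The lowest were those of the FACT subunit SSRP1 (0.20), of nucleolin, NCL (0.25), and of NAP1L4 (0.63). Input levels were not matched between groups, and 4 of the 5 genes at 2 times or more in the H3.3 group had only 0.03 to 0.24 RPM in input. Of the 4 genes of that group with at least 0.5 RPM in input, UBN1 alone reached 2 times, with 1.07 RPM in input. In the H2A.Z group too, some of the genes at 2 times or more had low input, down to 0.09 RPM. Of 13 genes that process stem-loop histone mRNA, 5 had a peak and 4 of them reached 2 times, beside the same 62.7%. Among them was SLBP, the stem-loop binding protein, with 38.02 RPM in RIP and 12.79 RPM in input and a log2 ratio of 1.57. The others of these 4 had only 0.19 to 1.06 RPM in input. LSM10, the only gene of the 5 below 2 times, had the most input. It had 43.75 RPM in RIP and 29.82 RPM in input, a log2 ratio of 0.55.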

How the data were processed

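UV-crosslinked RIP-seq of PRMT5 and matched input was measured in 2 libraries each. Per the labels, the authors used fastp, HISAT2 and hg38, and a strand-specific kit. The peak caller, the annotation and the pooling of replicates are not given in the sources used here. The authors deposited 1 peak list with pooled RPM values per group, rounded to 0.01, which changed the ratios of these peaks by at most 0.763%, and the caller's log2 fold change, p-value and FDR. RPM steps gave no whole reads, so depth, intervals and floors were not computed.

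Peaks were assigned to their first-listed identifier, without its version. Of 8478 identifiers, 849 were named through the part of a supplementary table used here and 5266 by position on RefSeq GRCh38.p14, where peaks touched 1 gene of the same strand, or where 1 of several genes was mostly covered and held nearly all of the identifier's span. All 7 genes with peaks were named by position. Exons, UTRs and the blocks that the list counts within a peak were not used here. Widths, levels per kilobase and marked bases therefore refer to the whole span between the outer edges of a peak. The measure was log2((RIP + 0.01) / (input + 0.01)). Genes were the sums over peaks. Of peaks of 500 nt or less, 85.2% had a width that is a multiple of 25 nt, which limits how finely edges are placed.

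The genes and lists were chosen with earlier results of these data known. Named were all 8 genes, and of each list at most the 3 highest and 3 lowest genes with at least 0.5 RPM in input. The marker genes and pseudogenes named were chosen after their values were seen. No test was made. Functions were tested on simulated data. Python 3.11.15, pandas 2.3.3, numpy 2.4.6 and matplotlib 3.10.9 were used.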

Additional observations from a re-analysis of the deposited data

How the results depend on the processing

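No paired analysis was possible because the list holds 1 pooled value per group, and for the same reason no replicate could be left out. The median log2 RPM ratio of the 14 peaks, 0.99, became -0.11 relative to the median of all peaks, 0.16 relative to peaks of at least the same input (added after the data were seen) and 1.65 by the caller's measure. Under all other alternatives, each gene left out in turn among them (also added after the data were seen), it lay between 0.94 and 1.10. The 7 peaks at 2 times input became 11 at 1.5 times (77.6% of all peaks), 2 at 3 times (29.7%) and 11 of 13 at 2 times by the caller (91.2%). They became 4 of 9 among peaks of at most 5000 nt (58.1%), and 5 to 7 otherwise, beside 44.0% to 57.8%. The 5′-most peak had the higher ratio in all 4 genes, beside 68.0% to 71.3% of such genes over the list. By the caller, which gave no value for the wide H3-3B peak, it did in 3 of 3, beside 71.4%. H2AZ2 fell to -0.13 with peaks of at most 5000 nt, because only its narrow peak was left. The other alternatives for the 7 gene values kept their sign. However, the 5 genes at 2 times input became 2 with peaks of at most 5000 nt (64.4% of all genes) and 4 by the median over peaks (61.9%). They became 4 of 6 without opposite-strand overlap (64.3%) and 5 by the peak of highest input (59.3%). These gene counts were added after the data were seen. H1-10 had no value without opposite-strand overlap. The unknown depth limits the low peaks most, such as the last MACROH2A1 peak at 1.01 RPM in input.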
